A study of Mus musculus with 12 samples.

Results

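Collagen chains were followed in whole lung of male wild-type C57Bl/6J mice aged 3, 6, 12 and 24 months. The labels place the mice in the colony of a national center for geriatrics and give no treatment other than age. Each age had 3 mice, each analysed on its own as 1 poly(A) RNA-seq library, so the p-values given here measure the spread between mice of one age. A chain was taken as any protein-coding gene whose symbol reads Col, a number, a and a second number, which gave 44 of the 35275 genes in the deposited table. Of these, 36 held enough reads to be tested, with 9 of 11 fibrillar chains, 6 of 6 basement membrane chains of type IV and 21 of 27 other chains. In whole lung, fewer cells of a type and less RNA per cell cannot be told apart.

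Collagens are secreted proteins made of chains that wind around each other in a triple helix, in which glycine recurs every 3 residues. Fibrillar collagens form the cables that bear load in airway walls, vessels and the alveolar septum, type IV collagens form the sheet under epithelium and endothelium, and the remaining types link, anchor or organise these structures. In the lung the sheet between alveolar epithelium and capillary holds a special network of the Col4a3, Col4a4 and Col4a5 chains, and autoantibodies to the Col4a3 chain bleed the lung and damage the kidney in Goodpasture disease.

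The repeat is visible in the coding sequence, where a codon beginning with GG recurs every 3 codons. The first 12 triplets of the longest unbroken run are shown for the chains on which the results turn, from GENCODE M21 transcripts (build mm10), 5′ to 3′ on the coding strand, with the glycine codon that opens each triplet in capitals and positions counted from 1 at the A of the start codon.
Col3a1, positions 490 to 597: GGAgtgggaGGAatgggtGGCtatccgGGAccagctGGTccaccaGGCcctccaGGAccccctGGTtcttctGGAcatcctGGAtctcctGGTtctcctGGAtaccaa
Col5a2, positions 631 to 738: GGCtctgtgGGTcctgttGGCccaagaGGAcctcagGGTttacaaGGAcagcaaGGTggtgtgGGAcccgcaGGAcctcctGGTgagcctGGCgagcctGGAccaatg
Col4a2, positions 2329 to 2436: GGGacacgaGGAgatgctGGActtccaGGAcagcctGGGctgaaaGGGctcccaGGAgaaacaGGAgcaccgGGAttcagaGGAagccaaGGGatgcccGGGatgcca
Col4a3, positions 127 to 234: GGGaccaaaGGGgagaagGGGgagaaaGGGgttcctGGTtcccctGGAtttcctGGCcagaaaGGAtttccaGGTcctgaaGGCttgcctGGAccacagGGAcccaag
Col4a4, positions 2467 to 2574: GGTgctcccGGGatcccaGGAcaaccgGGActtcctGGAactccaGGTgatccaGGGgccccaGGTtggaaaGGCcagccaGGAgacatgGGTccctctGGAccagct
Col6a2, positions 811 to 918: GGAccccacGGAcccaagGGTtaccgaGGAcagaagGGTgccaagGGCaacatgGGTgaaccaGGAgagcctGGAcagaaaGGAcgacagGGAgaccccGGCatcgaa
Col18a1, positions 2857 to 2964: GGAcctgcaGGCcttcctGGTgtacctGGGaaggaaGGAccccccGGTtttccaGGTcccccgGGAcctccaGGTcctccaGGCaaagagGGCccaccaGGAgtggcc
The run was unbroken for 344 triplets in Col3a1 and 339 in Col5a2, against 87 in Col6a2, 66 in Col4a2, 45 in Col4a4, 39 in Col4a3 and 30 in Col18a1, whose helices are interrupted. The stretches shown had a GC content of 59.3% in Col4a3 to 67.6% in Col18a1. Over the whole coding sequence the last base of a codon was G or C in 28.4% of codons in Col3a1, 28.9% in Col4a5 and 29.4% in Col5a2, against 55.4% in Col18a1 and 64.9% in Col6a2. Collagen transcripts were thus rich in GC, with a median of 56.3% (46.8 to 62.9%) over the longest transcript of the 36 tested chains and 49.9% over all tested genes.

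This composition matters for the ages compared, because the 24-month libraries stood apart. Depth was alike, with 14720869 to 17950382 gene reads at 24 months, against 15336539 to 21244361 at the younger ages. Read-weighted GC content over genes was 54.1 to 55.8% at 24 months, against 50.1 to 51.5% at the younger ages. The share of mitochondrial genes was 0.443 to 0.629% at 24 months, against 1.65 to 3.12% at the younger ages, with 12-month mouse 3 the highest. A smooth on GC content and gene length took 67.9% of the variance of all log2 fold changes at 24 against 3 months, 30.3% at 12 against 3 months and 10.9% at 6 against 3 months. The main edgeR comparisons below are therefore given without and with an offset that removes each library's own smooth on GC content and length. Levels by mouse, their shares and ratios, and the DESeq2 counts carry no offset. A log2 fold change is that of the edgeR fit with its SE, CPM (read counts scaled by TMM library size) are levels not corrected for length, an adjusted p is from the edgeR quasi-likelihood test over all tested genes, and an adjusted p under 0.05 was taken as passing. The TMM factors were 0.826, 0.767 and 0.521 in 24-month mice 1, 2 and 3, against 1.06 to 1.20 at the younger ages. For the same share of reads a lower factor gives a higher CPM. The scaling thus raises CPM at 24 months against the younger ages, most in mouse 3, and FPKM do not carry it.

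Per length, on the authors' FPKM scale, the highest levels over all 12 libraries belonged to types IV and VI. The mean FPKM was 222 for Col4a2, 174 for Col4a1, 124 for Col6a1 and 85.6 for Col6a2, followed by 79.0 for Col1a2, 52.0 for Col3a1 and 51.2 for Col1a1. Below these came 27.9 FPKM for the transmembrane chain Col13a1, 20.9 for Col23a1, 19.7 for Col4a4, 18.1 for Col18a1, 18.1 for Col4a3 and 16.7 for Col4a5. The fibrillar chains held 30.7, 27.5 and 24.6% of summed collagen FPKM in the 3-month mice, 25.4, 22.9 and 21.1% in the 6-month mice, 20.9, 20.2 and 16.2% in the 12-month mice and 17.0, 16.2 and 13.0% in the 24-month mice. The 3 values at 24 months and the 3 at 12 months all lay below the 3 at 3 months. At 24 months the FPKM order differed at many places, such as Col4a5 (rank 10 at 3 months and 18 at 24 months) and Col16a1 (15 and 9). The text gives 3 more here and returns to them. Col3a1 was the fifth at 3 months (94.2 ± 13.8 FPKM) and the tenth at 24 months (22.2 ± 7.78 FPKM, SD, n = 3 each). Col4a3 held 1.69 ± 0.744 FPKM at 24 months, against 35.7 ± 12.3 at 3 months. Col18a1 held 36.9 ± 12.6 FPKM at 24 months, against 9.79 ± 1.39 at 3 months.

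At 6 against 3 months no chain passed in either direction, without or with the offset, and DESeq2 called none either. The background was the same without the offset, since 0% of the 16042 tested genes passed as higher and 0% as lower. With the offset 1 of 15949 genes was higher and 0 lower, and DESeq2 gave 6 of 16042 higher and 0 lower. At an unadjusted p under 0.05 edgeR gave 2 chains higher and 2 lower without the offset, and 2 higher and 4 lower with it. The share of all genes at an unadjusted p was not taken, here or at the later contrasts. Such counts are therefore not read as a result about the chains. The lower pair without the offset was Col3a1 (log2 -0.67 ± 0.23) and Col5a2 (-0.59 ± 0.20), whose 3 mice at 6 months all lay below the 3 at 3 months. In the authors' deposited table Col3a1 (adjusted p = 0.00647) and Col5a2 (adjusted p = 0.0363) had a lower level at 6 months, by -0.50 and -0.45 on their log2 scale.

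At 12 against 3 months collagen chains that passed were nearly all lower. Without the offset 8 of 36 chains fell, against 8.87% of all tested genes, and 1 chain rose, against 6.3%. With the offset 14 fell, against 8.11% of all genes, and none rose, against 9.78%, with 2 chains higher at an unadjusted p under 0.05. By class, without the offset, 2 fibrillar, 3 basement membrane and 3 other chains fell and 1 other chain rose, and with it 6, 3 and 5 fell. The 5 chains that fell both ways were the fibrillar Col3a1 and Col5a2, the basement membrane chains Col4a3 and Col4a5, and Col6a3. The offset alone added Col1a1, Col1a2, Col11a2, Col27a1, Col4a1, Col7a1, Col9a3, Col16a1 and Col17a1, and it ended the calls of Col4a4, Col8a1, Col12a1 and the single rise, Col8a2. The median log2 fold change of the 36 chains was -0.42 without and -0.40 with the offset, beside -0.02 and 0.05 over all tested genes. The number lower without the offset was 4 without 3-month mouse 2, 4 without 3-month mouse 3 and 5 without 12-month mouse 2. Of all genes, 230 of 16245, 353 of 16310 and 506 of 16332 were lower in these fits. With the offset the number of chains lower was 9 without 3-month mouse 2, where 431 of 16150 genes were lower. The calls of Col17a1 with the offset were lost without any 1 of the 6 mice, of Col16a1 without any of 4 and of Col11a2 without any of 3.

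The 6-month mice gave a second, smaller contrast. At 12 against 6 months Col4a3, Col4a5, Col5a2 and Col8a1 fell without the offset, 4 of 36 against 1.55% of all genes, and no chain rose, against 0.48%, with 1 higher at an unadjusted p under 0.05. With the offset Col4a5, Col8a1, Col11a2 and Col27a1 fell, against 2.8% of all genes, and none rose, against 2.97%, again with 1 at an unadjusted p under 0.05. DESeq2 gave 7 lower, against 5.76% of all genes, and 0 higher, against 4.09%. The 4 edgeR calls without the offset were lost without any 1 of the 3 mice at 6 months, 12-month mouse 1 or 12-month mouse 2. Chains lower numbered 5 without 12-month mouse 3. Of all genes, 6 of 16313, 19 of 16293, 1 of 16271, 2 of 16277 and 2 of 16332 were lower without those mice, in that order. Without 12-month mouse 3 it was 914 of 16326. With the offset 0 chains remained without 6-month mouse 1, 6-month mouse 3 or 12-month mouse 2, and 2 without 12-month mouse 1. In these fits 83 of 16216, 3 of 16174, 105 of 16233 and 231 of 16181 genes were lower. A test of any difference among 3, 6 and 12 months passed for 7 chains without the offset, Col3a1, Col4a3, Col4a5, Col5a2, Col6a3, Col8a1 and Col8a2, against 6.44% of all genes. It passed for 13 with the offset, against 10.9%.

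In the comparison of 24 with 3 months most calls depended on the offset. Without the offset 22 chains passed as higher, against 38.2% of all genes, and 8 as lower, against 44.6%. With it 3 passed as higher, against 30.3%, and 20 as lower, against 28.3%. The median log2 fold change of all genes was -0.29 without the offset, -0.17 with RLE size factors and -0.01 with the offset, and that of the 36 chains was 0.83 without and -0.49 with the offset. By class, without the offset, 6 fibrillar, 3 basement membrane and 13 other chains were higher and 2, 2 and 4 lower, and with it 0, 1 and 2 were higher and 6, 3 and 11 lower. The calls of 9 chains agreed in direction both ways: Col22a1 and Col6a2 as higher, and Col3a1, Col5a2, Col4a3, Col4a5, Col8a1, Col12a1 and Col28a1 as lower. Another 10 chains passed as higher without the offset and as lower with it, namely Col1a1, Col1a2, Col11a2, Col4a1, Col7a1, Col13a1, Col16a1, Col17a1, Col20a1 and Col23a1. Of the remaining chains, 10 passed as higher only without the offset, 1 as lower only without it, 1 as higher and 3 as lower only with it, and Col6a5 and Col6a6 passed neither way.

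**Figure D1:**
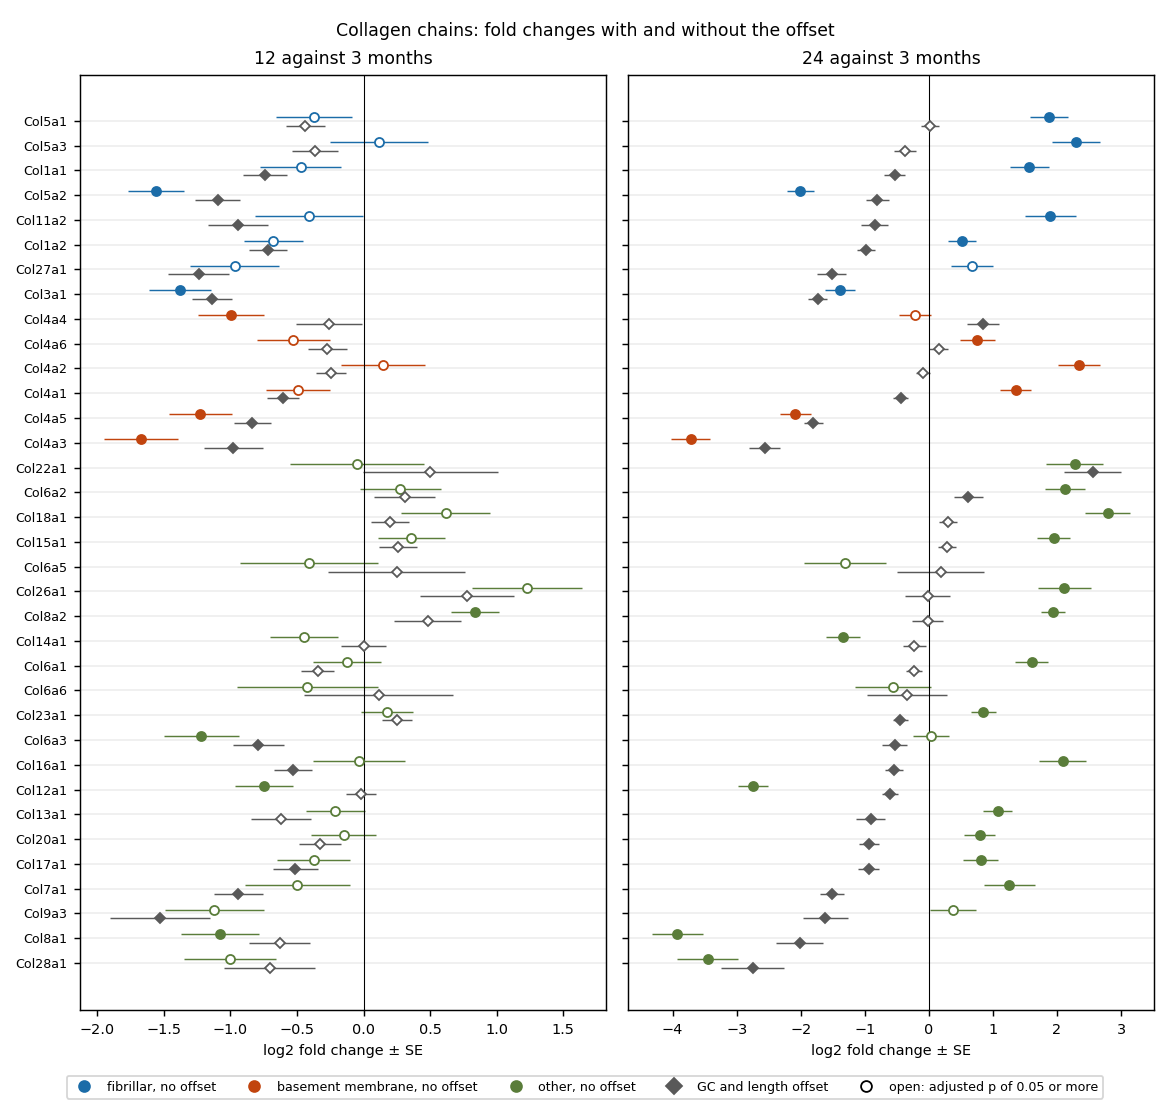
log2 fold changes ± SE (x axis) of 35 tested collagen chains (rows) at 12 against 3 months, left, and 24 against 3 months, right. Circles are without the offset, coloured by class, grey diamonds with it, and open symbols have an adjusted p of 0.05 or more. Col2a1 is left out because it held 2 reads at 3 months. At 24 against 3 months most circles lie right of 0 and most diamonds left of it, while Col4a3, Col4a5, Col3a1, Col5a2, Col8a1 and Col28a1 lie left in both.

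GC content ordered the chains at 24 months. Across the 35 chains with usable fold changes, GC content and log2 fold change at 24 against 3 months had a Pearson r of 0.84 (Spearman rho 0.77) without the offset and 0.13 (0.11) with it. For 12 against 3 months r was 0.55 without and -0.05 with the offset. These are descriptions over genes that share the same 12 libraries, and what part the composition of the libraries plays in any single fold change was not tested. The 7 chains lower both ways at 24 months were all among the 12 of lowest GC content, from 46.8% in Col8a1 to 52.5% in Col3a1.

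**Figure D2:**
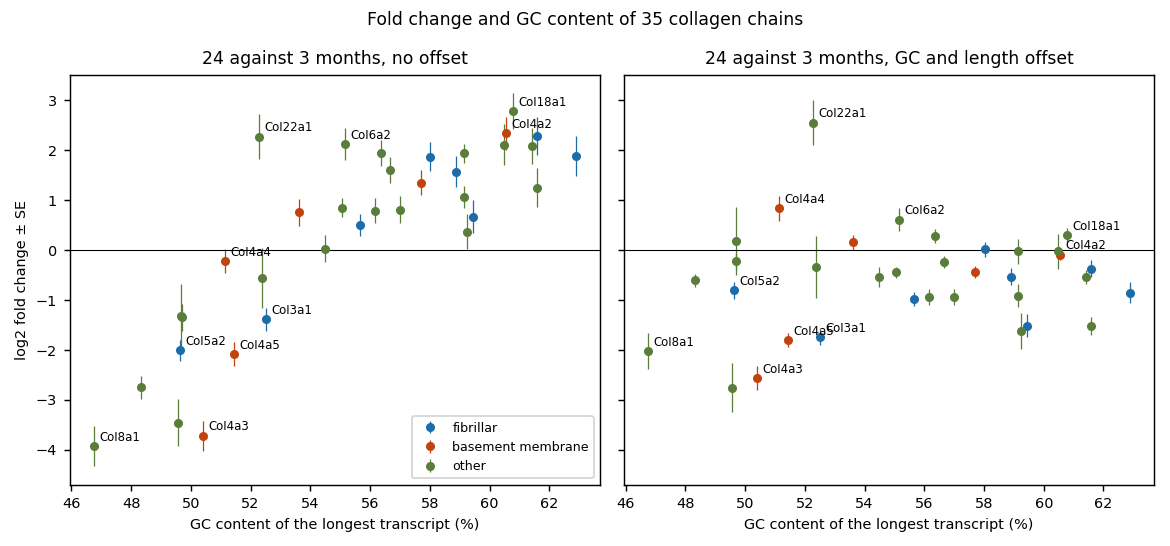
GC content of the longest transcript in percent (x axis) against the log2 fold change at 24 against 3 months ± SE (y axis) for 35 collagen chains, without the offset on the left and with it on the right. On the left the chains climb with GC content, from Col8a1 at -3.93 to Col18a1 at 2.79. On the right Col4a3, Col4a5, Col3a1 and Col8a1 stay well below 0, Col4a2 and Col18a1 lie close to it, and Col22a1 lies above.

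Among the fibrillar chains, type III collagen was lower at 12 and at 24 months than at 3 months in both fits. Col3a1 (chr1:45311538-45349706, plus strand) encodes the single chain of type III, which mixes with type I in vessels and septa. It had 441, 505 and 396 CPM at 3 months, 319, 279.7 and 246 at 6 months, 213, 185 and 119 at 12 months and 195, 173 and 146 at 24 months. All mice at 6, 12 and 24 months lay below the 3 mice at 3 months. The change at 12 against 3 months was -1.38 ± 0.23 (adjusted p = 0.00396) and -1.14 ± 0.15 with the offset (adjusted p = 0.000951). At 24 against 3 months it was -1.38 ± 0.23 (adjusted p = 5.03e-05) and -1.74 ± 0.15 with the offset (adjusted p = 7.31e-07). The mice at 24 and 12 months overlapped in CPM (without the offset -0.01 ± 0.23, adjusted p = 0.980), while the fit with the offset gave -0.60 ± 0.15 (adjusted p = 0.00519).

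Its neighbour on chromosome 1 moved the same way. Col5a2 (chr1:45374321-45503282, minus strand) encodes a chain of type V, the minor collagen inside type I fibrils that starts them and limits their width. It had 83.1, 104 and 80.2 CPM at 3 months, 62.7, 56.3 and 58.7 at 6 months, 35.5, 33.5 and 21.8 at 12 months and 23.6, 19.7 and 23.4 at 24 months. No mouse at 6, 12 or 24 months reached the lowest mouse at 3 months. The change was -1.56 ± 0.21 at 12 against 3 months (adjusted p = 0.00147, and -1.09 ± 0.17 with the offset) and -2.005 ± 0.21 at 24 against 3 months (adjusted p = 6.57e-07, and -0.80 ± 0.17, adjusted p = 0.00125, with the offset).

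**Figure D3:**
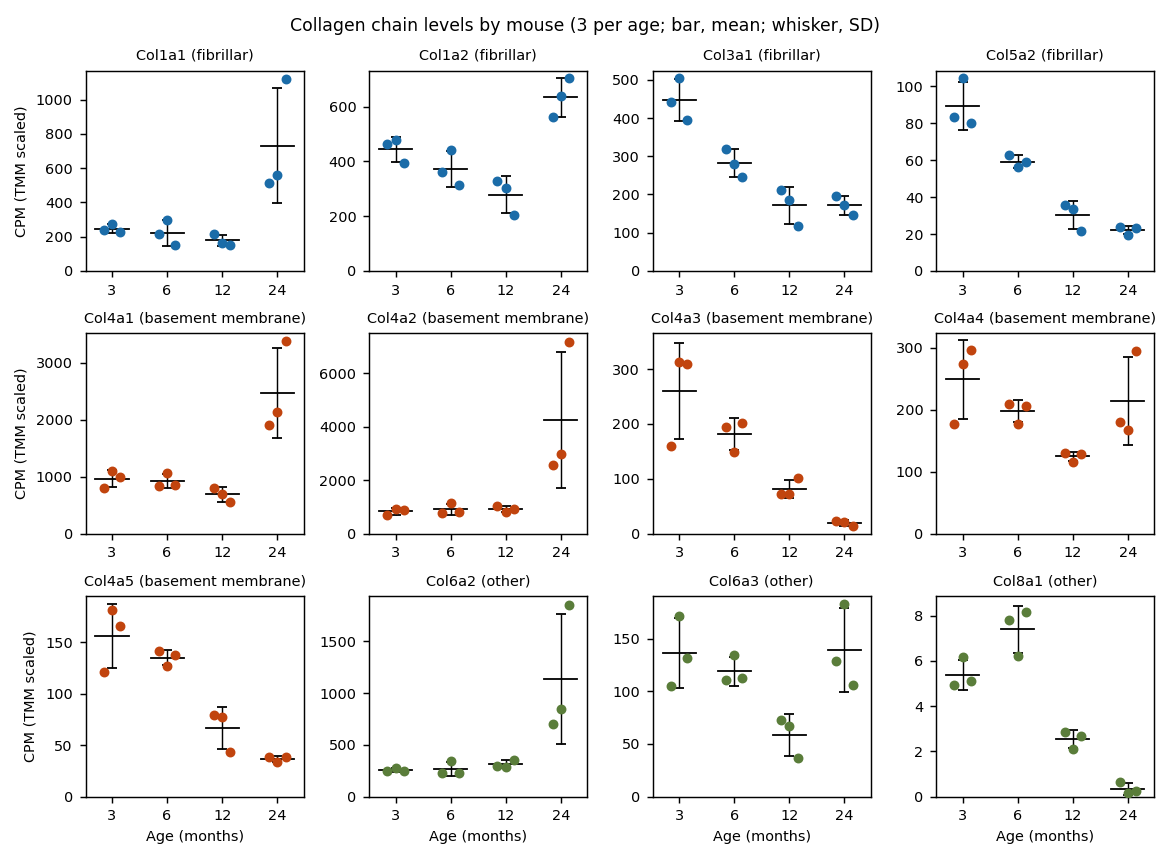
Levels in CPM on TMM library sizes (y axis) of 12 collagen chains by age in months (x axis). Each point is 1 mouse, the bar is the mean and the whisker the SD of 3 mice, with fibrillar chains in blue, basement membrane chains in orange and others in green. Col3a1, Col5a2, Col4a3 and Col4a5 step down from 3 to 12 months, and in several chains that are high at 24 months, such as Col4a2 and Col6a2, mouse 3 lies far above the other 2.

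The type I chains did not give the same answer in both fits at 24 months. Col1a1 (chr11:94936224-94953042) and Col1a2 (chr6:4504814-4541543) together make type I, the main load-bearing collagen. Col1a1 had 241, 273 and 225 CPM at 3 months, 214, 299.9 and 152 at 6 months, 217, 164 and 152 at 12 months and 515, 559.9 and 1119.6 at 24 months. The 24-month mice lay above all others, and mouse 3 was the highest of them. Col1a1 was 1.57 ± 0.31 at 24 against 3 months without the offset (adjusted p = 0.000212) and -0.53 ± 0.17 with it (adjusted p = 0.0134, and 0.078 without 3-month mouse 1). Col1a2 had 463, 479.8 and 393 CPM at 3 months, 359.9, 443 and 314 at 6 months, 329.9, 302 and 203 at 12 months and 562, 639 and 705 at 24 months. Its change was 0.51 ± 0.22 without the offset (adjusted p = 0.0424) and -0.98 ± 0.15 with it (adjusted p = 5.77e-05). Without the offset that call of Col1a2 was lost without any of 4 mice, mice 1 and 3 at 3 months and mice 2 and 3 at 24 months. On the deposited FPKM scale, which takes no TMM factor, Col1a2 held 82.4 ± 12.1 at 24 months, against 97.6 ± 11.9 at 3 months. In the comparison of 12 with 3 months the 3 mice at 12 months lay below the 3 at 3 months for both chains, at -0.47 ± 0.30 for Col1a1 and -0.68 ± 0.22 for Col1a2, and both passed only with the offset, at -0.74 ± 0.17 (adjusted p = 0.0103) and -0.72 ± 0.14 (adjusted p = 0.00592).

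The other type V chains did not follow Col5a2. Col5a1, the partner of Col5a2 in the usual type V molecule, had 157, 173 and 366 CPM at 24 months, against 58.5, 74.1 and 57.1 at 3 months. Its change was 1.87 ± 0.30 without the offset (adjusted p = 2.60e-05) and 0.02 ± 0.15 with it (adjusted p = 0.930). Against 12 months it passed as higher both ways, at 2.25 ± 0.30 and 0.45 ± 0.15 (adjusted p = 0.0220, and 0.087 without 12-month mouse 2 or 0.068 without 24-month mouse 3). Col5a3, a less common type V chain, had 18.6, 20.3 and 63.2 CPM at 24 months, against 6.20, 6.64 and 7.88 at 3 months, and was 2.29 ± 0.38 without the offset, 1.498 without 24-month mouse 3, and -0.37 ± 0.17 with it (adjusted p = 0.0688).

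The remaining fibrillar chains are best known from cartilage and bone and were low in the lung. Col11a2 had 7.48, 6.10 and 23.1 CPM at 24 months, against 3.43, 2.99 and 3.31 at 3 months, and was 1.89 ± 0.40 without the offset, 1.07 without 24-month mouse 3, and -0.85 ± 0.21 with it. Col27a1 had 26.9, 26.5 and 61.4 CPM at 24 months, against 23.9, 29.6 and 18.1 at 3 months. Against 3 months it passed only with the offset, as lower at 12 (-1.24 ± 0.23) and 24 months (-1.51 ± 0.23, adjusted p = 6.19e-05). At 24 against 12 months it passed as higher without the offset (1.64 ± 0.34, adjusted p = 0.000393) and did not pass with it (-0.28 ± 0.23, adjusted p = 0.345). Col2a1, the chain of cartilage fibrils, had 9, 4 and 29 reads at 24 months, against 2, 0 and 0 at 3 months. Its share of pooled gene reads was 24.1 times as high at 24 months (95% exact binomial interval 6.27 to 206, for counting error only), and it passed without the offset (adjusted p = 0.00362) but not with it (adjusted p = 0.166). At 12 months it had 0, 2 and 21 reads, so that mouse 3 held the most at both ages. Among 9 cartilage markers, Acan showed 0.817 CPM in 12-month mouse 3 and 2.46 in 24-month mouse 3 and at most 0.329 in the other libraries of those ages, Matn1, Matn3, Hapln1 and Ucma had no read at 24 months, and the summed level was 114 to 281 CPM at 24 months, against 31.1 to 40.5 at 3 months, most of it Chad. The part of cartilage in these values was not tested.

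Fibroblasts, the main source of fibrillar collagen, were followed by 9 markers. Their summed level was 3821 to 4088 CPM at 24 months, against 2799 to 3312 at 3 months, and 2560 to 3596 at 12 months. These sums carry the TMM factors, 0.521 to 0.826 at 24 months and 1.15 to 1.20 at 3 months. A higher sum at 24 months is therefore not by itself a higher share of reads. Without the offset 4 of 9 markers were higher and 5 lower at 24 against 3 months, and with it none were higher and 4 lower, and 1 was lower at 12 against 3 months both ways. Of all genes 38.2% were higher and 44.6% lower at 24 against 3 months without the offset, and 30.3% and 28.3% with it. No marker was at 0 at any age, and their part in the collagen changes was not tested.

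Col4a3 and Col4a5 fell at 12 and 24 months in both fits, while for Col4a1 and Col4a2, which together form the network of nearly all basement membranes, the fits differed at 24 months. Col4a3 (chr1:82586921-82722059, plus strand) had 159, 313 and 309 CPM at 3 months, 195, 149 and 202 at 6 months, 72.9, 71.8 and 101 at 12 months and 23.7, 21.4 and 14.0 at 24 months. The 3 mice at 24 months lay below the 3 at 12 months, which lay below all 6 younger mice, and 3-month mouse 1 was well below the other 2 of its age. The change was -1.67 ± 0.28 at 12 against 3 months (adjusted p = 0.00371), and -0.98 ± 0.22 with the offset (adjusted p = 0.0105, and 0.055 without 3-month mouse 2). At 24 against 3 months it was -3.72 ± 0.31 (adjusted p = 8.23e-08) and -2.56 ± 0.24 with the offset (adjusted p = 1.06e-06). The change at 24 against 12 months was -2.05 ± 0.29, and -1.58 ± 0.23 with the offset (adjusted p = 9.29e-05).

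Col4a5 (chrX:141475385-141689234), the remaining chain of the same network and the gene mutated in X-linked Alport kidney disease in humans, had 121, 181 and 166 CPM at 3 months, 142, 127 and 137 at 6 months, 79.0, 77.7 and 43.3 at 12 months and 38.5, 33.6 and 38.4 at 24 months. Both older groups lay below both younger ones, and the older groups did not overlap. Its change was -1.23 ± 0.24 (adjusted p = 0.00662) at 12 and -2.08 ± 0.24 (adjusted p = 1.40e-06) at 24 against 3 months. With the offset the values were -0.83 ± 0.14 (adjusted p = 0.00231) and -1.80 ± 0.14 (adjusted p = 3.04e-07).

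Col4a4 departed from its partners. It had 176, 274 and 296 CPM at 3 months, 209, 177 and 206 at 6 months, 129, 116 and 128 at 12 months and 179.6, 167 and 295 at 24 months, so that in CPM the 12-month mice lay below all others and the 24-month mice overlapped the 3-month mice. On the FPKM scale it had 20.2, 32.7 and 33.8 at 3 months, 13.9, 12.2 and 13.5 at 12 months and 14.7, 12.7 and 15.2 at 24 months, where the 24-month mice lay below the 3-month mice and overlapped the 12-month mice. For 12 against 3 months it fell without the offset (-0.997 ± 0.25, adjusted p = 0.0194, over 0.05 without mouse 2 or mouse 3 at 3 months or mouse 2 at 12 months) but not with it (-0.26 ± 0.25, adjusted p = 0.488). At 24 against 3 months it was -0.22 ± 0.25 without the offset (adjusted p = 0.412), where leaving out 3-month mouse 1 (adjusted p = 0.022) or 24-month mouse 3 (0.024) made it pass as lower, and passed as higher with it (0.84 ± 0.25, adjusted p = 0.0102). At 24 against 12 months it passed as higher both ways (0.78 ± 0.25 and 1.10 ± 0.25), the first of these not without 12-month mouse 1 (adjusted p = 0.073).

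Col4a3 and Col4a4 are read outward from one short stretch of chromosome 1, so the difference between them is between neighbours. Col4a4 (chr1:82448423-82586849) lies on the minus strand, Col4a3 on the plus strand, and the 71 bases between them are shown because both genes start at its edges.
Between Col4a4 and Col4a3, chr1:82586850-82586920, mm10, plus strand: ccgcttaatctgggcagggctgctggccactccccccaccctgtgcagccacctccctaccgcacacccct
This stretch, from RefSeq's promoter table for the same build, had a GC content of 69.0%. Their transcripts were alike in composition, with a GC content of 50.4% in Col4a3 and 51.1% in Col4a4. The ratio of Col4a3 to Col4a4 FPKM within a library was 1.07, 1.35 and 1.23 in the 3-month mice, 1.10, 0.991 and 1.16 in the 6-month mice, 0.666, 0.729 and 0.929 in the 12-month mice and 0.156, 0.151 and 0.0563 in the 24-month mice. It averaged 0.121 ± 0.0563 at 24 months, against 1.22 ± 0.141 at 3 months (SD, n = 3 each), with no overlap between ages 12 and 3 or 24 and 3 months (exact two-sided permutation p = 0.1 each, the smallest that 3 against 3 mice allow, and 0.111 after Benjamini-Hochberg adjustment over 10 ratio tests).

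Type 1 alveolar cells, which lie on this network, were followed by 5 markers. Their summed level was 8708 to 12439 CPM at 24 months, against 3144 to 4146 at 3 months, most of it Ager. In the comparison of 24 with 3 months 2 markers were higher and 3 lower without the offset, and 1 higher and 1 lower with it. At 12 against 3 months 2 of 5 were higher without the offset, 1 with it, and none lower. None was at 0. Of 5 endothelial markers 1 was higher and 4 lower at 24 against 3 months in both fits, and none passed at 12 against 3 months in either. Their summed level was 1167 to 1611 CPM at 24 months, against 2236 to 2457 at 3 months. Of 5 smooth muscle markers 3 were higher and 1 lower at 24 against 3 months in both fits, and their summed level was 1155 to 1998 CPM at 24 months, against 452 to 718 at 3 months. None of these markers was at 0 either. The shares of all genes at 24 against 3 months were 38.2% higher and 44.6% lower without the offset, and 30.3% and 28.3% with it. The part of these cells in the type IV chains was not tested.

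The common type IV chains were the highest of all and moved with the 24-month libraries. Col4a1 (chr8:11198423-11312826) and Col4a2 (chr8:11312805-11449287) lie head to head on chromosome 8 and overlap at their starts, and whether reads were counted by strand is not given. Col4a1 had 804, 1108 and 989.9 CPM at 3 months, 836, 1071 and 863 at 6 months, 810.2, 699 and 556 at 12 months and 1906, 2139 and 3371 at 24 months. Col4a2 had 690.3, 922 and 892 CPM at 3 months, 794, 1139 and 805 at 6 months, 1021, 819 and 929 at 12 months and 2575, 2992 and 7172 at 24 months. In CPM the 3 mice at 24 months were above all others for both chains, with mouse 3 the highest. In FPKM Col4a1 held 251 ± 14.0 at 24 months, against 172 ± 30.4 at 3 months (SD, n = 3 each). Col4a2 held 422 ± 137 FPKM, against 152 ± 24.9. Col4a1 was 1.35 ± 0.25 at 24 against 3 months without the offset (adjusted p = 0.000103) and -0.44 ± 0.12 with it (adjusted p = 0.00598), and at 12 against 3 months it fell only with the offset (-0.60 ± 0.12, adjusted p = 0.00559). Col4a2 was 2.35 ± 0.33 without the offset (adjusted p = 8.66e-06, 1.74 without 24-month mouse 3) and -0.09 ± 0.11 with it (adjusted p = 0.518). Col4a6, the rarer partner of Col4a5 in smooth muscle basement membrane, had 25.2, 38.5 and 35.6 CPM at 3 months, 33.4, 38.6 and 32.1 at 6 months, 27.5, 29.2 and 12.1 at 12 months and 54.04, 61.2 and 52.3 at 24 months. In FPKM Col4a6 held 5.96 ± 1.62 at 24 months, against 5.84 ± 1.32 at 3 months and 3.70 ± 1.53 at 12 months (SD, n = 3 each). It passed as higher at 24 against 3 months without the offset (0.76 ± 0.27, adjusted p = 0.0175, lost without mouse 1 or 3 at 3 months or mouse 2 at 24 months) and not with it (0.16 ± 0.15), and against 12 months as higher both ways (1.28 ± 0.28 and 0.43 ± 0.15, the value with the offset not without 12-month mouse 3 or 24-month mouse 1 or 2).

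Ratios of other partner chains also shifted with age. The ratio of Col4a1 to Col4a2 was 0.722, 0.697 and 0.458 in the 24-month mice, against 1.14, 1.17 and 1.08 in the 3-month mice, and averaged 0.730 ± 0.130 at 12 months. That of Col3a1 to Col1a1 was 0.404, 0.329 and 0.139 in the 24-month mice, against 1.95, 1.97 and 1.88 in the 3-month mice, and averaged 1.03 ± 0.185 at 12 months. That of Col6a1 to Col6a2 was 1.45, 1.36 and 1.11 in the 24-month mice, against 1.66, 1.77 and 1.93 in the 3-month mice, and averaged 1.37 ± 0.181 at 12 months. In these 3 pairs neither the 24-month nor the 12-month mice overlapped the 3-month mice (exact permutation p = 0.1, adjusted 0.111). That of Col1a1 to Col1a2 was 0.827, 0.790 and 1.43 in the 24-month mice, against 0.470, 0.513 and 0.515 in the 3-month mice (exact permutation p = 0.1), and overlapped at 12 months (exact permutation p = 0.3). In 4 of the 5 pairs the chain that was relatively lower at 24 months had the lower GC content, and the exception was Col6a1 (56.7%, against 55.2% in Col6a2), and the ratios carry no offset.

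**Figure D4:**
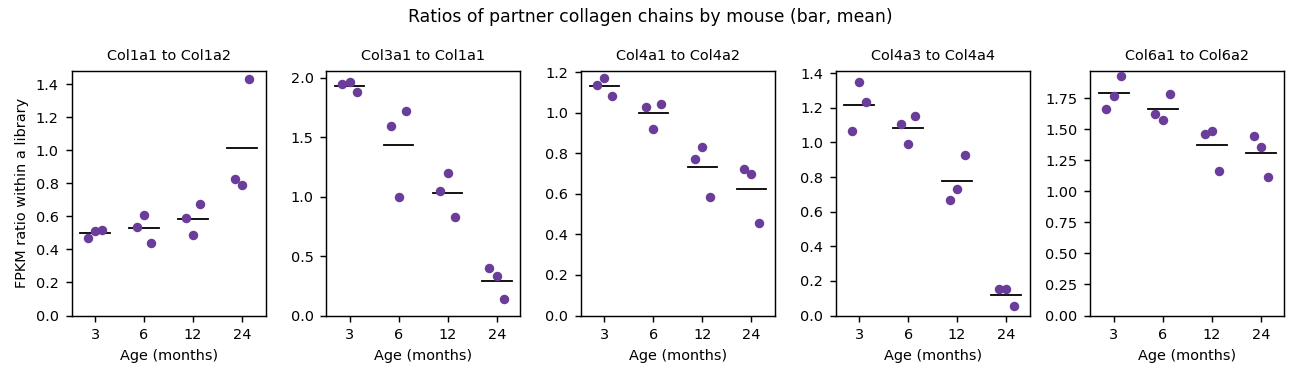
Ratio of the authors' FPKM of 2 partner chains within a library (y axis) by age in months (x axis). Each point is 1 mouse and the bar is the mean of 3. Col4a3 to Col4a4 lies at 0.0563 to 0.156 at 24 months, against 1.07 to 1.35 at 3 months, and the ratio of Col1a1 to Col1a2 is the one that is higher at 24 months.

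Type VI collagen forms beaded microfibrils around cells, from Col6a1, Col6a2 and the long Col6a3 chain or its substitutes. Col6a3 (chr1:90765923-90843971) had 105, 172 and 132 CPM at 3 months, 110.2, 134 and 112 at 6 months, 72.7, 66.7 and 36.2 at 12 months and 129, 183 and 106 at 24 months. In CPM the 12-month mice lay below all others, but in FPKM they overlapped the 24-month mice. For 12 against 3 months it fell (-1.22 ± 0.28, adjusted p = 0.0142, rising to 0.086 when mouse 2 at 3 months was left out and to 0.051 when mouse 3 was), and -0.79 ± 0.19 with the offset (adjusted p = 0.0143, but 0.069 without 3-month mouse 2). At 24 against 3 months it was 0.03 ± 0.28 without and -0.54 ± 0.19 with the offset, where it passed as lower (adjusted p = 0.0267, but 0.095 without 3-month mouse 2). Col6a1 had 345, 414 and 403 CPM at 3 months, 307, 457 and 339.7 at 6 months, 365, 358 and 344 at 12 months and 847, 959 and 1721 at 24 months, and Col6a2 248, 281 and 250.2 CPM at 3 months, 227, 347 and 228 at 6 months, 299, 289 and 356 at 12 months and 701, 847 and 1855 at 24 months. The 24-month mice were above all others for both. Col6a1 was 1.60 ± 0.26 at 24 against 3 months without the offset (adjusted p = 3.41e-05) and -0.24 ± 0.12 with it (adjusted p = 0.114). Col6a2 passed as higher both ways, at 2.13 ± 0.32 (adjusted p = 1.45e-05) and 0.61 ± 0.23 (adjusted p = 0.0319), the second not without any 1 of the 3-month mice or 24-month mouse 3 (adjusted p = 0.065 to 0.16). Col6a5 and Col6a6, which can stand in for Col6a3, held at most 2.20 and 1.54 CPM in any mouse, both in 6-month mouse 1, and passed in no comparison.

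Among the network-forming chains, the type VIII pair passed in opposite directions only without the offset, and with it only Col8a1 passed, as lower. Type VIII is a short-chain collagen of vessel walls and the cornea. Col8a1 (chr16:57624258-57754737) had 4.92, 6.15 and 5.10 CPM at 3 months, 7.81, 6.20 and 8.17 at 6 months, 2.85, 2.10 and 2.68 at 12 months and 0.658, 0.145 and 0.234 at 24 months. The 24-month mice held 8, 2 and 2 reads, and lay below the 12-month mice, which lay below all younger mice. It fell at 24 against 3 months both ways, at -3.93 ± 0.40 without the offset (adjusted p = 4.04e-07, and -4.85 without 24-month mouse 1) and -2.02 ± 0.36 with it (adjusted p = 0.000284, and -2.88 without that mouse). At 12 against 6 months it also fell both ways (-1.53 ± 0.29 and -1.16 ± 0.23), and at 12 against 3 months without the offset (-1.08 ± 0.29, adjusted p = 0.0261, lost without mouse 2 or 3 at 3 months or mouse 1 or 2 at 12 months). Col8a2 (chr4:126286793-126314330) had 24.1, 27.6 and 27.3 CPM at 3 months, 32.2, 35.01 and 36.7 at 6 months, 46.8, 55.2 and 39.2 at 12 months and 98.3, 104 and 100.4 at 24 months, with no overlap in CPM between any neighbouring ages. In FPKM the 12-month mice overlapped the 6-month and the 24-month mice. It was the one chain that rose at 12 against 3 months (0.84 ± 0.18, adjusted p = 0.00998, 0.050 to 0.055 without mouse 2 or 3 at 3 months or mouse 2 at 12 months) and it was 1.94 ± 0.18 at 24 against 3 months (adjusted p = 2.29e-07). With the offset the values were 0.48 ± 0.25 (adjusted p = 0.187) and -0.02 ± 0.25 (adjusted p = 0.949). The transcript GC content was 46.8% in Col8a1 and 59.1% in Col8a2. Col7a1, the chain of the fibrils that anchor squamous and airway epithelium, had 18.8, 23.3 and 81.8 CPM at 24 months, against 19.1, 17.4 and 14.98 at 3 months, and was 1.26 ± 0.40 without the offset (0.30 without 24-month mouse 3, adjusted p = 0.142, and the call was also lost without 3-month mouse 3) and -1.51 ± 0.18 with it (adjusted p = 9.97e-06). In that mouse the 6 markers of basal and squamous epithelium summed to 1290 CPM, against 5.59 CPM in the lowest 24-month mouse and 4.46 to 4.70 at 3 months, 5 of them were highest there and Trp63 was at 0.234 CPM. Skeletal muscle markers summed to 336 CPM in it, against 15.6 in the lowest 24-month mouse and 3.05 to 4.59 at 3 months, with Myh2 at 0. Their part in the values of that mouse was not tested.

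The fibril-associated chains decorate fibrils without forming them. Col12a1 had 46.1, 66.6 and 63.7 CPM at 3 months, 57.7, 54.6 and 56.0 at 6 months, 34.98, 34.8 and 35.5 at 12 months and 12.0, 7.63 and 6.44 at 24 months, and the 24-month mice lay below the 12-month mice, which lay below all younger mice. It fell at 24 against 3 months both ways, at -2.75 ± 0.24 (adjusted p = 1.15e-07) and -0.61 ± 0.13 with the offset (adjusted p = 0.000861). Its fall at 12 against 3 months was -0.74 ± 0.22 without the offset (adjusted p = 0.0350, lost without mouse 2 or 3 at 3 months or mouse 1 or 2 at 12 months) and -0.02 ± 0.11 with it (adjusted p = 0.924). Its relative Col14a1 had 30.9, 18.7 and 17.4 CPM at 24 months, against 48.3, 64.3 and 58.1 at 3 months, and passed as lower only without the offset (-1.34 ± 0.26, and -0.23 ± 0.17 with it). Col22a1, known from the junction of muscle and tendon, was low but rose in both fits. It had 21, 21 and 19 reads at 24 months, against 7, 8 and 9 at 3 months, or 1.73, 1.53 and 2.22 CPM against 0.289, 0.352 and 0.473. Every 24-month mouse lay above all 9 others. The change was 2.28 ± 0.45 (adjusted p = 0.000214) and 2.56 ± 0.44 with the offset (adjusted p = 0.000215), and it passed as higher against 12 months too (2.32 ± 0.46 and 2.06 ± 0.45). Col16a1 had 110.1, 131 and 382 CPM at 24 months, against 56.0, 50.9 and 39.6 at 3 months, and Col20a1 had 9.13, 9.30 and 15.6 CPM, against 5.29, 6.81 and 7.41. Both passed as higher without the offset (2.09, 1.31 without 24-month mouse 3, and 0.79) and as lower with it (-0.54 and -0.93), the calls being lost without 3-month mouse 1 for Col20a1 without the offset and for Col16a1 with it. Col9a3 held 0.292 to 1.64 CPM and passed as lower with the offset at 12 (-1.53, adjusted p = 0.068 without 3-month mouse 2) and 24 months (-1.62).

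All 3 tested transmembrane chains changed direction with the offset. Col13a1, a cell surface chain at sites of adhesion, had 143, 156 and 178 CPM at 24 months, against 89.2, 75.4 and 62.0 at 3 months. Col23a1 had 158, 178 and 195 CPM, against 85.6, 106 and 102, and Col17a1, the chain of epithelial hemidesmosomes, had 9.29, 12.1 and 17.7 CPM, against 7.03, 7.999 and 7.15. The 24-month mice lay above the 3-month mice in all 3 chains in CPM, and overlapped them in all 3 in FPKM. Without the offset they passed as higher (1.07, 0.85 and 0.81, the last of these not without mouse 1 or 3 at 3 months or mouse 3 at 24 months) and with it as lower (-0.91, -0.45 and -0.94).

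The multiplexins sit in the basement membrane zone, and Col18a1 carries the fragment endostatin, an inhibitor of vessel growth. Col18a1 had 50.3, 59.9 and 48.5 CPM at 3 months, 63.0, 87.1 and 47.6 at 6 months, 87.7, 67.5 and 88.2 at 12 months and 221, 252 and 626 at 24 months. Col15a1 had 10.1, 14.7 and 10.5 CPM at 3 months, 14.7, 14.8 and 10.5 at 6 months, 16.1, 17.2 and 12.0 at 12 months and 34.5, 41.0 and 61.1 at 24 months. In CPM the 24-month mice were above all others in both chains, with mouse 3 the highest. In FPKM the 24-month mice lay closer together for Col15a1, at 5.92 ± 0.349, against 2.67 ± 0.652 at 3 months (SD, n = 3 each). Col18a1 was 2.79 ± 0.36 without the offset (adjusted p = 3.17e-06, 2.17 without 24-month mouse 3) and 0.30 ± 0.14 with it (adjusted p = 0.0832), and Col15a1 was 1.95 ± 0.26 without and 0.28 ± 0.14 with the offset (adjusted p = 0.101). Of the remaining tested chains, Col28a1, found around peripheral nerve, had 5, 2 and 1 reads at 24 months, against 55, 66 and 50 at 3 months, and no 24-month mouse reached the lowest 12-month mouse. It fell both ways, at -3.45 ± 0.47 (adjusted p = 6.15e-06, -4.21 when mouse 1 at 24 months was left out) and, with the offset, -2.75 ± 0.50 (adjusted p = 0.000309, -3.46 without that mouse). Col26a1 had 1.73, 2.25 and 3.86 CPM at 24 months, against 0.496, 0.835 and 0.421 at 3 months, and was 2.12 ± 0.42 without and -0.02 ± 0.35 with the offset.

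At 24 against 12 months 25 chains passed as higher without the offset, against 37.3% of all genes, and 6 as lower, against 42.5%. With the offset 4 passed as higher, against 22.1%, and 9 as lower, against 22.6%. Col22a1, Col4a4, Col4a6 and Col5a1 were higher both ways, and Col4a3, Col4a5, Col8a1, Col12a1 and Col28a1 lower both ways, the call of Col8a1 with the offset being lost without 24-month mouse 2 (adjusted p = 0.0769). Col7a1, Col20a1 and Col23a1 passed as higher without the offset and lower with it. The comparisons with 12 and with 3 months share the 24-month libraries. Spread between mice of one age was widest there, with a median coefficient of variation over the 36 chains of 14.8% at 3 months, 14.7% at 6 months, 19.2% at 12 months and 33.1% at 24 months.

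The 8 chains with too few reads to test were mostly cartilage, bone and brain collagens. Col11a1 had 3, 2 and 5 reads at 3 months, 5, 3 and 4 at 6 months and no read at 12 or 24 months, where no read in the pooled libraries allows up to 0.0551 and 0.0611 CPM of pooled gene reads. Col24a1 had 1, 0 and 0 reads at 24 months, against 5, 12 and 6 at 3 months, and Col25a1 had 1, 0 and 0, against 2, 10 and 4. Col9a2 had 5, 6 and 30 reads at 24 months, against 3, 1 and 0 at 3 months, and Col6a4 had 0, 5 and 8, against 0, 0 and 0, so both were highest in 24-month mouse 3. Col9a1, Col10a1 and Col19a1 had at most 3 reads in any library.

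Collagen must be modified, folded, cut and crosslinked to form a matrix, and lists of genes for these steps were followed beside the chains. Their counts stand against all genes, of which 6.3% were higher and 8.87% lower at 12 against 3 months without the offset and 9.78% and 8.11% with it. For 24 against 3 months the shares were 38.2% higher and 44.6% lower without the offset, and 30.3% and 28.3% with it. Of 13 tested genes of procollagen processing and crosslinking, 3 fell at 12 against 3 months without the offset and 3 with it, and none rose either way. Lox, lysyl oxidase, which starts crosslinks between collagen molecules, had 5.68, 4.36 and 2.69 CPM at 24 months, against 50.4, 61.1 and 60.3 at 3 months. It fell both ways at 12 against 3 months (-1.28 ± 0.27, adjusted p = 0.00965, and -0.87 ± 0.14 with the offset) and at 24 against 3 months (-3.73 ± 0.31, adjusted p = 8.70e-08, and -1.27 ± 0.17 with the offset). No 24-month mouse reached the lowest 3-month mouse. Tll1, a relative of the enzyme that removes the C-propeptide, also fell both ways at 12 (-1.46 and -1.04) and 24 months (-3.79 and -2.03) against 3 months, and at 12 against 6 months (-1.44 and -1.09). Adamts3, which removes the N-propeptide, had -3.56 without and -2.79 with the offset at 24 against 3 months, both passing. At that contrast 7 members of the list were higher and 5 lower without the offset, and 3 higher and 6 lower with it.

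Of 20 synthesis enzymes and chaperones, 3 rose and 1 fell at 12 against 3 months without the offset and none passed with it. Leprel4 (0.74), a partner of lysyl hydroxylase, and Ppib (0.63), the prolyl isomerase of the folding complex, were higher, and Mia3 (-0.93), which loads procollagen for export, was lower. In the comparison of 24 with 3 months 11 were higher and 8 lower without the offset, and 2 higher and 7 lower with it. Plod2, the lysyl hydroxylase of the telopeptides, fell both ways (-3.38 and -0.96), as did Mia3 (-3.23 and -0.87) and the collagen chaperone Sparc (-0.63 and -1.35), while Plod1 rose both ways (2.42 and 1.73).

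Of 12 genes of collagen breakdown and uptake, none passed at 12 against 3 months without the offset, and with it Ctsb, a lysosomal protease, rose (0.43 without and 0.74 with the offset) and Mmp2, a gelatinase, fell (-0.58). At 24 against 3 months 7 were higher and 3 lower without the offset, and 4 each way with it. Mfge8, which binds collagen fragments for uptake, and the gelatinase Mmp9 rose both ways (2.85 and 1.09 for Mfge8, 3.21 and 1.57 for Mmp9), and the inhibitor Timp3 fell both ways (-2.53 and -0.60). Of 7 fibril-associated proteoglycans none passed at 12 against 3 months. For 24 against 3 months 3 were higher and 4 lower without the offset, and 3 higher and none lower with it, with Fmod, which guides fibril growth, higher both ways (2.56 and 1.40) and Dcn, decorin, lower only without the offset (-2.45, and -0.40 with it). Of 9 collagen receptors Ddr1, a receptor kinase, rose at 12 against 3 months both ways (0.88 and 0.48). Its relative Ddr2 fell both ways at 24 against 3 months (-3.34 and -0.66), where 3 members were higher and 5 lower without the offset and 1 higher and 2 lower with it, and Itgb1, the shared integrin subunit, passed as lower only without it (-2.58, and -0.34 with it). In each of these lists no member passed at 6 against 3 months in either fit.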

How the data were processed

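Poly(A) RNA-seq of lung gave 1 library for each of 12 mice. The deposited count of reads per gene was used for all tests, and the authors' deposited FPKM, which 235411 of 235411 recomputed values matched within 1e-06, for levels per length. The 6 columns of the authors' mean scaled reads per comparison were not used. The log2 fold changes and p-values of the authors' deposited comparisons are printed only where named. The submitters' processing notes list TopHat, STAR 2.5, HTSeq 0.6.1 and mm10 without roles, and no source used here says whether counting used strand.

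Counts were fitted with edgeR 4.0.16 (R 4.3.3) by the robust quasi-likelihood test with TMM factors after filterByExpr, over 16042 genes and all 12 libraries, with Benjamini-Hochberg adjustment. The offset is a per-library smooth of GC content and log2 length (mgcv 1.9.3), over 15949 genes. GC content came from the longest GENCODE M21 transcript, matched for 97.77% of gene IDs. Gene reads numbered 14720869 to 21244361 per library. DESeq2 1.42.0, other filters, size factors, a replicate block and leaving out each mouse were alternatives. RefSeq's table (GRCm38.p6) held a promoter window for 35 of 44 chains.

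Every chain was to be named. Values by mouse go to the 3 highest in each class, the 3 of smallest p per class and direction in each comparison, those whose direction was the same or turned with the offset, and up to 3 called genes per pathway list. The chains, lists and rules were chosen with earlier results of these data known. Intervals and limits from reads cover counting error only.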

Additional observations from a re-analysis of the deposited data

How the results depend on the processing

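The 24-month comparisons depend on the offset. With it 3 chains passed as higher and 20 as lower at 24 against 3 months, and 4 as higher at 24 against 12 months. It changed the sign of the log2 fold change at 24 against 3 months of Col8a2 (-0.0205), Col20a1 (-0.93), Col1a1 (-0.53), Col26a1 (-0.0185), Col7a1 (-1.51), Col16a1 (-0.54), Col4a2 (-0.0902), Col5a3 (-0.37), Col11a2 (-0.85), Col23a1 (-0.45), Col4a1 (-0.44), Col6a1 (-0.24), Col1a2 (-0.98), Col17a1 (-0.94) and Col13a1 (-0.91), and among chains that had not passed without it of Col4a4 (0.84), Col27a1 (-1.51), Col9a3 (-1.62), Col6a3 (-0.54) and Col6a5 (0.18). With the offset Col8a2, Col26a1, Col4a2, Col5a3, Col6a1 and Col6a5 did not pass (edgeR adjusted p = 0.949, 0.969, 0.518, 0.0688, 0.114 and 0.832). At 12 against 3 months the number higher was 0 with the offset, 3 with only those ages fitted, 3 with the 24-month libraries left out (1 with the offset too) and 2 with DESeq2, and the number lower was 14 with the offset and 13 with the 24-month libraries left out, where 3021 of 15908 genes were higher and 2727 lower. At that contrast 2020 of 15657 genes were higher with only those ages fitted, 2776 of 15816 with the offset and no 24-month libraries, and 1584 of 16042 with DESeq2. At 12 against 6 months the number lower was 2 with RLE size factors, 0 with the replicate block, 7 with only those ages fitted, 9 with the 24-month libraries left out (9 with the offset too) and 7 with DESeq2. Of all genes, 140 of 16042 were lower there with RLE size factors, 6 of 16042 with the block, 986 of 15523 with only those ages fitted, 1442 of 15908 with the 24-month libraries left out (998 of 15816 with the offset too) and 924 of 16042 with DESeq2. Beyond the offset itself, the cause was not tested.

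Leaving out 1 mouse gave, without the offset, 0 to 1 higher and 4 to 9 lower at 12 against 3 months, 0 to 1 higher and 0 to 5 lower at 12 against 6 months, 18 to 23 higher and 8 to 10 lower at 24 against 3 months, 22 to 25 higher and 6 to 7 lower at 24 against 12 months, and 0 at 6 against 3 months. Of the 16245 to 16338 genes tested, 72 to 1199 were then higher and 230 to 2227 lower at 12 against 3 months. At 12 against 6 months 2 to 258 genes were higher and 1 to 914 lower. The ranges were 5363 to 6144 and 6858 to 7466 at 24 against 3 months, and 5239 to 6017 and 6617 to 7099 at 24 against 12 months. With the offset leaving out 1 mouse gave 0 higher and 9 to 14 lower at 12 against 3 months, 0 to 3 lower at 12 against 6 months, 2 to 4 higher and 18 to 21 lower at 24 against 3 months, and 3 to 4 higher and 7 to 11 lower at 24 against 12 months. Of the 16150 to 16240 genes tested, 360 to 1284 were then higher and 431 to 1112 lower at 12 against 3 months. At 12 against 6 months 3 to 332 genes were lower. The ranges were 4183 to 4752 higher and 3972 to 4386 lower at 24 against 3 months. At 24 against 12 months they were 2981 to 3604 and 3209 to 3585. Replicate numbers did not pair the mice (median correlation of same-numbered mice -0.054, 4 of 18 pairs over 0.1). The replicate block gave 1 higher and 7 lower at 12 against 3 months, 22 and 8 at 24 against 3 months and 24 and 6 at 24 against 12 months, and with the offset 16, 6, 20 and 10 lower at 12 against 3, 12 against 6, 24 against 3 and 24 against 12 months. Of all 16042 genes the block gave 602 higher and 985 lower, 6065 and 7065, and 5888 and 6750 at the same contrasts. With the block and the offset 1173, 343, 4374 and 3426 of 15949 genes were lower. With 3 mice an age, an exact permutation test of a single value cannot go below 0.1.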
